A study of Mus musculus with 13 samples.

Results

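The genes described here are the tumor necrosis factor (TNF) ligands and the TNF receptors that were measured in mouse liver. They were chosen by symbol from the protein-coding genes of a liver count table, which gave 40 of its 53465 genes, 16 ligands and 24 receptors. RNA sequencing was done on individual livers, 6 from WT and 7 from *Nod2*-/- animals. All 13 mice were males of the BALB/c inbred strain, and all had received the carcinogen DMBA on the skin as pups and a high-fat diet (HFD) that the labels give as 30 weeks long, with an age of 30 weeks. Both genotypes share carcinogen and diet, and there was no untreated group in the table. The labels give cancer as the disease state of every mouse. The study, however, found liver tumors in nearly all *Nod2*-/- males treated in this way but in a minority of such WT males. The labels do not give the tumor burden of single mice or whether the sequenced piece of liver held tumor tissue, so genotype and tumor content cannot be told apart in the differences between the groups. The *Nod2*-/- mice lack Nod2, an intracellular sensor of bacterial cell wall fragments, in all cells, and per the study's methods they were bred as a separate line in the same room rather than as littermates of the WT mice, so genotype and line cannot be told apart.

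TNF ligands are mostly membrane proteins that act as trimers, either on the cell surface or after they are cut off by proteases. They cluster receptors of the same superfamily. Receptors with a death domain, such as TNFR1, Fas and the TRAIL receptor, can lead through the adaptor Fadd to caspase-8 and apoptosis, or through Ripk1 and Ripk3 to Mlkl and necroptosis. Others, and TNFR1 as well, engage Traf proteins and switch on the NF-kB pathways, and some members are decoys that bind a ligand and do not signal. In liver the family is known for hepatocyte death, for hepatitis, and for the lymphotoxin and TWEAK signals that act on progenitor cells.

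Between 14886273 and 20579984 reads were counted on genes in the WT mice, and between 13824780 and 19391431 in the *Nod2*-/- mice. *Nod2* itself had at most 4 counts in a WT liver and at most 6 in a *Nod2*-/- liver, which is too few to test the labels by its transcript. Levels are given as normalized counts, that is, raw counts brought to a common library size, the mean of the 13 effective ones. Where genes are compared with each other, the level is the normalized count per kb of exon. In bulk tissue fewer cells of a type and less RNA per cell cannot be told apart. The 8 hepatocyte markers examined were measured in every liver, with a summed normalized count of 1355330 to 1926800 in WT and 1381580 to 2776470 in *Nod2*-/- mice.

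Receptors dominated the family in these livers, and most ligands were near the limit of detection. Of the 40 members, 18 passed edgeR's expression filter and were tested. These were 14 of the 24 receptors but only 4 of the 16 ligands, *Tnfsf10*, *Tnfsf12*, *Tnfsf13* and *Ltb*. The other 22 were too low to test, and 8 of them never exceeded 3 counts in any mouse, the limit used here for not detected (*Lta*, *Cd70*, *Tnfsf4*, *Tnfsf11*, *Tnfsf18*, *Tnfrsf8*, *Tnfrsf13c* and *Tnfrsf17*). *Cd70*, the ligand of Cd27, had 0 counts in all 13 livers, and such a floor covers counting error only. *Ltbr*, the lymphotoxin beta receptor, had the highest level of all members, with 714 normalized counts per kb in WT and 796 in *Nod2*-/- livers. *Tnfrsf1a*, which encodes TNFR1, followed with 373 and 490.2 per kb. *Fas* and *Tnfrsf1b*, which encodes TNFR2, came next in WT livers, at 171 and 175 per kb. In *Nod2*-/- livers they were in the reverse order, at 178 and 152. *Tnfrsf12a* lay between them there at 174 per kb, against 85.9 in WT livers. These neighbors were not ordered beyond the spread between mice.

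For *Ltbr*, *Tnfrsf1a*, *Tnfrsf1b* and *Fas*, the ligands were much scarcer than the receptor. *Tnf* had 1.79 normalized counts per kb in WT and 2.77 in *Nod2*-/- livers, and *Fasl* had 0.267 and 1.22. The receptor *Tnfrsf12a* and its ligand *Tnfsf12* were closer, at 85.9 and 76.9 per kb in WT and 174 and 97.5 in *Nod2*-/- livers. Of 24 known ligand and receptor pairs, the receptor had the higher level per kb in 17. Both partners were tested in only 3 pairs, *Ltb* with *Ltbr*, *Tnfsf10* with *Tnfrsf10b* and *Tnfsf12* with *Tnfrsf12a*. The receptor alone was tested in 10 pairs, the ligand alone in 2, and neither in 9.

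**Figure D1:**
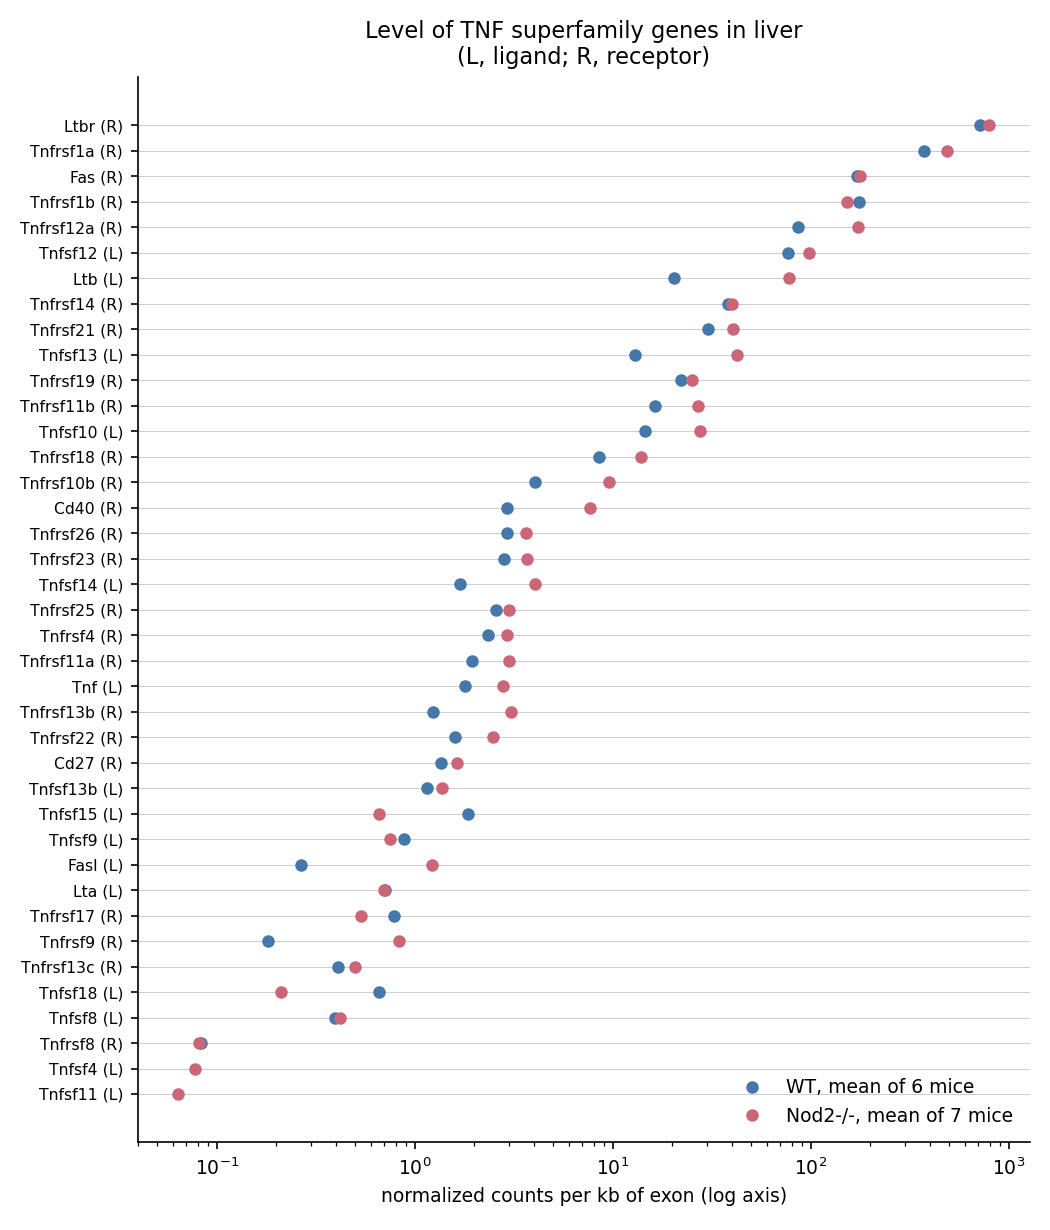
Mean level of each family member, as normalized counts per kb of exon on a log axis, in 6 WT (blue) and 7 Nod2-/- (red) livers, ordered by the mean over all 13. *Ltbr*, *Tnfrsf1a*, *Fas* and *Tnfrsf1b* lead, a mean of 0 has no point on a log axis, and *Cd70* is not drawn because it had 0 counts in every mouse.

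Genes of the family that lie side by side on a chromosome differed in level by very unequal amounts. The lymphotoxin and TNF genes *Ltb*, *Tnf* and *Lta* occupy chr17:35194439-35205351 of build GRCm38, and their levels per kb spanned a 72.8-fold range, with *Ltb* at the top. In the group of *Cd27*, *Ltbr* and *Tnfrsf1a* at chr6:125232622-125362484 the range was 505-fold. The neighbors *Tnfrsf26*, *Tnfrsf22* and *Tnfrsf23* at chr7:143607659-143685872, the last pair of which encode decoy TRAIL receptors, differed by 1.60-fold, *Tnfsf15* and *Tnfsf8* by 2.98-fold, and *Tnfsf13* and *Tnfsf12* by 3.06-fold. The low ends *Lta*, *Cd27* and *Tnfsf8* had at most 3, 8 and 4 counts in a liver, so the folds that rest on them are imprecise.

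The bases just before the start of *Ltb* and *Tnf* are shown because these neighbors differed so much in level, and those of *Tnfsf10* and *Tnfrsf12a* because these were among the members with the larger differences between the genotypes. They are RefSeq sequences of build GRCm38.p6, printed 5′ to 3′ on the strand of the gene up to the base before its annotated start. Capitals mark the 2 matches found by a search on both strands, TTCNNNGAA and the NF-kB consensus. *Ltb* is on the plus strand at chr17:35194257-35194438, *Tnf* on the minus strand at chr17:35202008-35202257, *Tnfsf10* on the plus strand at chr3:27316827-27317027, and *Tnfrsf12a* on the minus strand at chr17:23677469-23677699.
Ltb: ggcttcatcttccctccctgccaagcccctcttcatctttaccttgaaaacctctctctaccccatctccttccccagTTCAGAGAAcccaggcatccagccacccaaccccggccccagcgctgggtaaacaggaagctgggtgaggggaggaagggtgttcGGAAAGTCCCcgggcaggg
Tnf: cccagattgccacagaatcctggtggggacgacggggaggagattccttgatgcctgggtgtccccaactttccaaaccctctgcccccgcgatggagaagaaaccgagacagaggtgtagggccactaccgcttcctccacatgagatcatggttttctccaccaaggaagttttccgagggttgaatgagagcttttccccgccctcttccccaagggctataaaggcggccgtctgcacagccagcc
Tnfsf10: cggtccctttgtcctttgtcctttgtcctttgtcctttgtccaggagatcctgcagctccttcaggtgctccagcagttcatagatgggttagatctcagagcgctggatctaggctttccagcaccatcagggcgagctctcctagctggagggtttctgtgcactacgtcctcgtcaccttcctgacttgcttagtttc
Tnfrsf12a: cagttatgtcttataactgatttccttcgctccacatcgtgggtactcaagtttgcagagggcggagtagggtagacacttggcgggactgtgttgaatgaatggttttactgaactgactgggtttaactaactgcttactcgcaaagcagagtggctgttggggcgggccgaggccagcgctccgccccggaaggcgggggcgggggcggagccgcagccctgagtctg

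The NF-kB match of *Ltb* begins 19 bases before the start. Over windows of 250 bases before each start, 3.90% of all 32851 RefSeq promoters held the NF-kB consensus, and 3 of the 35 windows of the 31 members with an entry did (*Ltb*, *Tnfrsf8* and *Tnfrsf9*). TTCNNNGAA was in 8 member windows against 7.02% of all promoters, and TGANTCA, the AP-1 type motif, in 6 against 6.75%. A match is a stretch of letters and was not tested for binding, and the absence of a match covers only these letters in this window.

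For the genotype comparison, no member of the family passed 5% FDR (quasi-likelihood test of edgeR, p adjusted after Benjamini-Hochberg over the 13545 genes tested), against 1.16% of all genes tested. At an unadjusted p under 0.05 there were 7 members, all higher in *Nod2*-/- livers, against 12.9% of all genes tested being higher at that level. These 7 were *Tnfsf10*, *Tnfsf13*, *Ltb*, *Tnfrsf11b*, *Tnfrsf1a*, *Tnfrsf10b* and *Tnfrsf12a*. DESeq2, which the study used, gave 3 members past 5% FDR of 28 with an adjusted p, namely *Tnfsf10*, *Tnfrsf11b* and *Tnfsf13*, all higher, against 3.81% of all genes being higher by that tool. A fit that weights mice by quality (voomWithQualityWeights of limma) gave 5 (*Tnfsf10*, *Tnfrsf11b*, *Tnfrsf10b*, *Tnfrsf12a* and *Cd40*), against 3.83% of all genes.

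The estimated differences were mostly upward. Of the 18 tested members 17 had a positive log2 fold change, against 52.3% of all genes tested. The median log2 fold change was 1.31 over the 4 tested ligands, 0.39 over the 14 tested receptors and 0.02 over all genes tested. The share and the medians describe only the members above the filter. Some of them, such as *Cd40* (median normalized count 4.37 in WT and 20.6 in *Nod2*-/- livers), passed it mainly through the *Nod2*-/- livers. Such a selection favors positive values. Without the filter the medians were 0.63 for ligands and 0.34 for receptors. The ligand median was the value of *Tnf*, which was too low for the main test. It also counts *Tnfsf4* and *Tnfsf11*, each at 1.10 from 1 count in *Nod2*-/- replicate 4. The median over all genes in that fit is not given here. The groups overlapped for every tested member, while the normalized counts of 1.44% of all genes tested did not overlap between the genotypes.

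**Figure D2:**
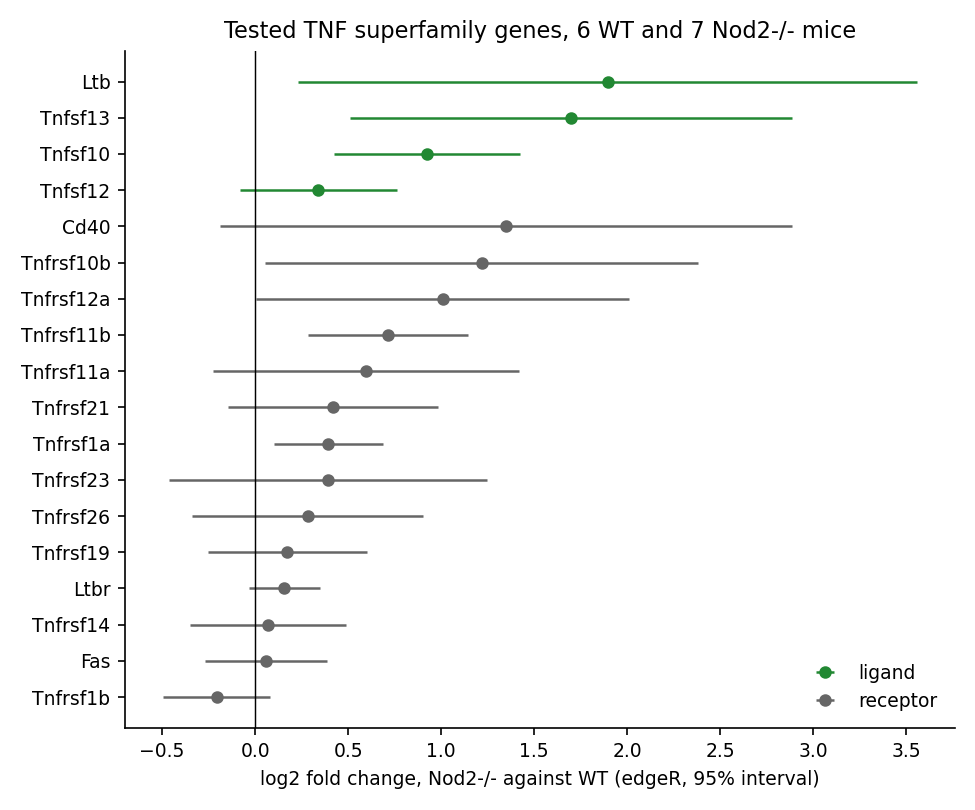
Log2 fold change of the 18 tested members, Nod2-/- against WT, with the 95% interval of the edgeR fit, ligands in green and receptors in gray. All but *Tnfrsf1b* lie above 0, and the intervals of *Ltb*, *Tnfsf13*, *Cd40*, *Tnfrsf10b* and *Tnfrsf12a* are the widest.

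*Tnfsf10* encodes TRAIL, a ligand that can start apoptosis through death receptors. Its normalized counts were 90.2, 65.8, 71.4, 71.3, 105 and 58.1 in WT replicates 1 to 6, and 104, 197, 235, 122, 128, 80.8 and 154 in *Nod2*-/- replicates 1 to 7. Thus 5 of 7 *Nod2*-/- livers lay above every WT liver, and the other two lay within the WT range. The means were 77.0 ± 17.3 (SD, n = 6) and 146 ± 54.2 (SD, n = 7), a log2 fold change of 0.92 ± 0.23 (SE) with an adjusted p of 0.0636 by edgeR and 0.00814 by DESeq2. It was the member with the smallest adjusted p in both fits. The estimate ranged from 0.77 to 1.03 when each mouse was left out in turn. *Tnfsf10* passed 5% FDR without WT replicate 3 (adjusted p = 0.0460), a fit in which 5.12% of all genes were called higher. It also passed without *Nod2*-/- replicate 6 (adjusted p = 0.0486), a fit in which 0.393% of all genes were called higher.

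*Tnfrsf10b*, the death receptor of TRAIL in mice, lay between 4.39 and 15.3 normalized counts in 5 WT livers and at 78.6 in WT replicate 3. In *Nod2*-/- livers it was 58.2, 63.4, 24.7, 92.7, 43.1, 35.3 and 49.0. Every *Nod2*-/- liver was therefore above those 5 WT livers, and only replicate 4 was above WT replicate 3. The log2 fold change was 1.22 ± 0.54 (edgeR adjusted p = 0.199). Without WT replicate 3, the highest WT liver, it was 2.24 (adjusted p = 0.0102), in a fit that called 5.12% of all genes higher. Without *Nod2*-/- replicate 4, the highest of its group, it was 1.02 (adjusted p = 0.344). *Tnfrsf10b* lies on chromosome 14, where 4.90% of the tested genes passed 5% FDR against 1.16% over the genome, and the part of that in its difference was not tested.

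*Tnfrsf11b* encodes osteoprotegerin, a secreted decoy that binds RANKL and TRAIL. WT livers held 32.8, 35.1, 48.8, 52.6, 40.9 and 67.1 normalized counts, and *Nod2*-/- livers 64.5, 91.2, 67.8, 103, 56.3, 87.6 and 62.7. Only 1 WT liver, replicate 6, reached into the *Nod2*-/- range. The log2 fold change was 0.71 ± 0.20, with an adjusted p of 0.0750 by edgeR and 0.0228 by DESeq2. *Tnfrsf11a*, which encodes RANK, had a log2 fold change of 0.60 (adjusted p = 0.365) at low counts, and their shared ligand *Tnfsf11* (RANKL) had 1 count in all.

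*Ltb* encodes lymphotoxin beta, the membrane anchor of the lymphotoxin trimer. It is in an immune gene table that the study drew up on these samples, so its direction is no independent evidence. The normalized counts were 9.23, 19.7, 107, 18.6, 9.94 and 22.1 in WT livers and 59.2, 34.7, 29.8, 198, 70.3, 15.9 and 412 in *Nod2*-/- livers. WT replicate 3 stood above 5 of the 7 *Nod2*-/- livers, and *Nod2*-/- replicate 7 had the highest value. The log2 fold change of 1.89 ± 0.78 (edgeR adjusted p = 0.168) was the largest of the 18 tested members, and without the expression filter *Fasl* (1.95) and *Tnfrsf9* (1.93) were above *Ltb* (1.87). It was 2.86 without WT replicate 3 (adjusted p = 0.0412) and 1.12 without *Nod2*-/- replicate 7 (adjusted p = 0.389), so single mice set its size. Its receptor *Ltbr* varied little, from 1542 to 1905 in WT and from 1561 to 2232 in *Nod2*-/- livers, with a log2 fold change of 0.16 (95% interval -0.03 to 0.35).

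*Tnfsf13* encodes APRIL, a survival factor of plasma cells. It is also in the study's table chosen on these samples. WT livers had 10.3, 8.77, 49.7, 8.77, 25.4 and 23.7 normalized counts and *Nod2*-/- livers 61.3, 64.4, 61.6, 193, 43.1, 10.2 and 51.9. Above the highest WT liver were 5 *Nod2*-/- livers, and *Nod2*-/- replicate 6 lay among the lowest WT livers. The log2 fold change was 1.70 ± 0.56, with an adjusted p of 0.103 by edgeR and 0.0250 by DESeq2, and it was 1.19 without *Nod2*-/- replicate 4. Its exons at chr11:69682846-69685784 are shared with the readthrough gene *Tnfsfm13* on the same strand and overlap the antisense gene *Tnfsf13os*, so its counts are uncertain. *Tnfsfm13* had log2 fold change 0.67 (adjusted p = 0.239) and *Tnfsf13os* 0.60 (adjusted p = 0.322).

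The neighbor *Tnfsf12* encodes TWEAK and also shares exons with *Tnfsfm13*. It ranged from 99.4 to 169 in WT livers and from 83.5 to 204 in *Nod2*-/- livers (log2 fold change 0.34, 95% interval -0.08 to 0.76). Its receptor *Tnfrsf12a*, which encodes Fn14, varied more. The counts were 67.7, 72.4, 454, 83.3, 120.4 and 198 in WT livers and 364, 446, 162, 703, 205, 283 and 190.1 in *Nod2*-/- livers. Among WT livers replicate 3 was again far above the rest. The log2 fold change of 1.01 ± 0.47 (edgeR adjusted p = 0.214) became 1.61 without it (adjusted p = 0.0308), in a fit that called 5.12% of all genes higher. Without *Nod2*-/- replicate 4, the highest of its group, it became 0.72 (adjusted p = 0.408).

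*Cd40* encodes a receptor of antigen-presenting cells. It was low, at 2.05, 1.10, 38.9, 2.19, 8.84 and 6.55 in WT livers and 23.3, 31.7, 17.5, 74.8, 10.5, 4.55 and 20.6 in *Nod2*-/- livers. Without WT replicate 3 its log2 fold change was 2.59 (adjusted p = 0.0359), against 1.35 with it (adjusted p = 0.273), and without *Nod2*-/- replicate 4 it was 0.81. *Cd40lg*, the ligand, never exceeded 4 counts in a liver.

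**Figure D3:**
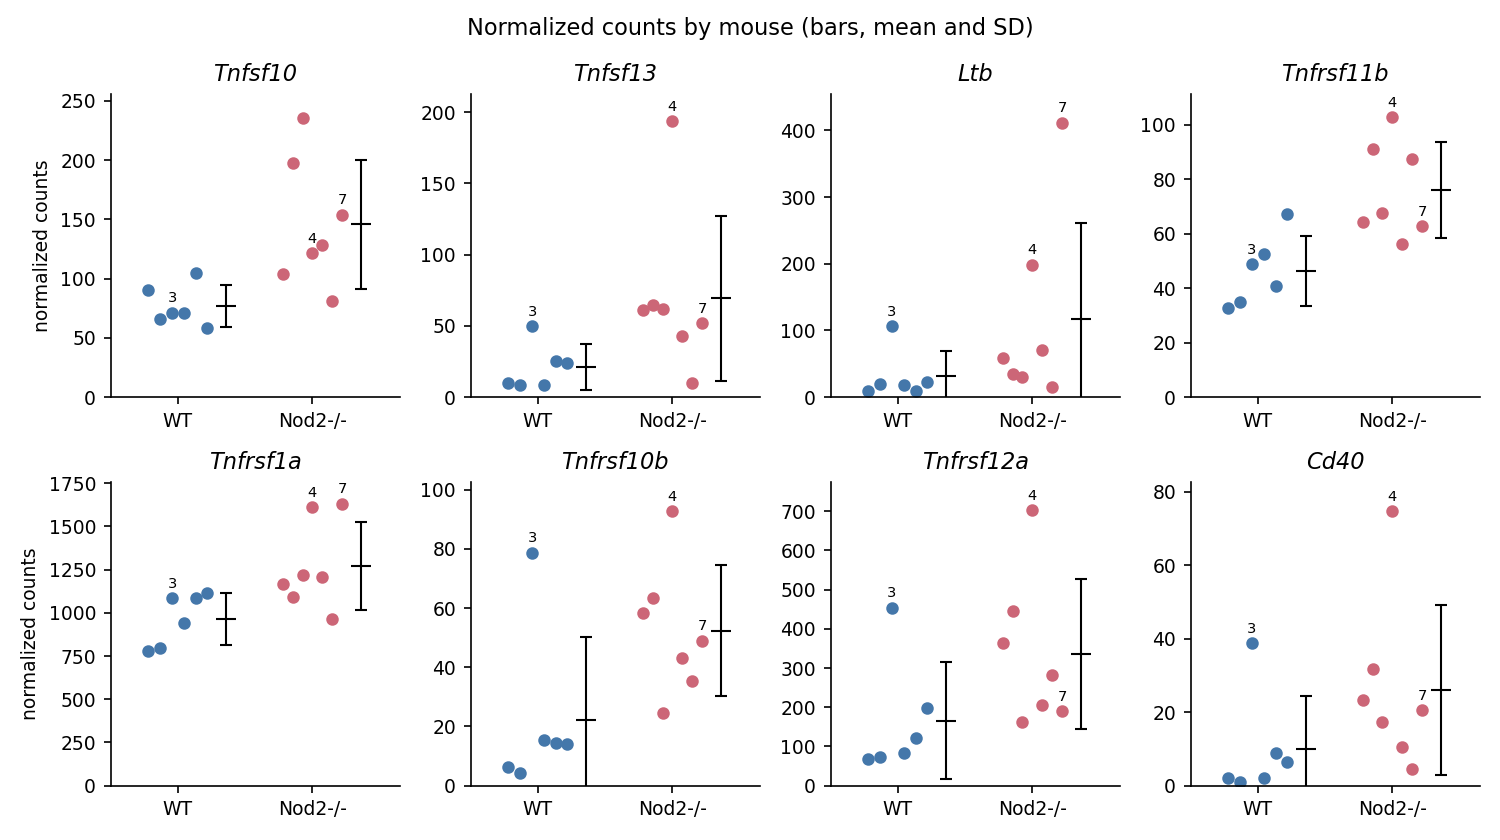
Normalized counts per mouse of 8 members, WT in blue and Nod2-/- in red, with the mean and SD as black bars, cut at 0 where the SD is larger than the mean. WT replicate 3 and Nod2-/- replicates 4 and 7 are numbered, and WT replicate 3 stands above the other WT livers for *Tnfsf13*, *Ltb*, *Tnfrsf10b*, *Tnfrsf12a* and *Cd40*, but not for *Tnfsf10*.

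The abundant receptors *Ltbr*, *Tnfrsf1a*, *Tnfrsf1b* and *Fas* differed less. *Tnfrsf1a* had 780.0, 796, 1085, 944, 1084 and 1112 normalized counts in WT livers and 1164, 1093, 1217, 1613, 1206, 966 and 1631 in *Nod2*-/- livers. The *Nod2*-/- livers above every WT liver were 5 of 7, and the log2 fold change was 0.39 ± 0.14 (edgeR adjusted p = 0.117). *Tnfrsf1b* was the only tested member with a negative estimate, at -0.21 (95% interval -0.50 to 0.08), with 556 to 736 in WT and 423 to 802 in *Nod2*-/- livers. For *Fas* the genotypes were close, with 353 ± 53.3 (SD, n = 6) and 367 ± 92.3 (SD, n = 7), and the interval of its log2 fold change ran from -0.27 to 0.39. The remaining tested receptors were *Tnfrsf21* (0.42, a death receptor), *Tnfrsf23* (0.39, a decoy), *Tnfrsf26* (0.28), *Tnfrsf19* (0.17) and *Tnfrsf14* (0.07, the receptor of LIGHT), given as log2 fold changes. None of these passed 5% FDR, and *Tnfrsf21* did without WT replicate 3, its highest WT liver, with log2 fold change 0.72 (adjusted p = 0.0438). Without *Nod2*-/- replicate 7, the highest of its group, *Tnfrsf21* was at 0.33 (adjusted p = 0.533). The exons of *Tnfrsf23* and *Tnfrsf26* overlap the antisense gene *E230032D23Rik*, which had at most 2 counts in a liver.

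*Tnf*, the ligand after which the family is named, was too low for the test. It had 3.08, 1.10, 2.71, 8.77, 1.10 and 0.819 normalized counts in WT livers and 1.06, 1.98, 3.08, 4.99, 1.76, 2.28 and 16.7 in *Nod2*-/- livers. The groups lay over each other except for *Nod2*-/- replicate 7 (two-sided exact permutation test over 1716 splits, unadjusted p = 0.510, smallest possible p = 0.000583). *Fasl*, the ligand of Fas, had at most 1 count in a WT liver and at most 7 in a *Nod2*-/- liver. In 3 of 7 *Nod2*-/- livers it was above every WT liver. Without the expression filter the log2 fold change of *Fasl* was 1.95 ± 0.91 (edgeR, unadjusted p = 0.0449, adjusted p = 0.311), and the exact permutation test gave an unadjusted p of 0.138. *Tnfrsf18* (GITR, a receptor of T cells) was also left out by the filter because it was high only in single livers, at 56.9 in WT replicate 3 and 83.8 in *Nod2*-/- replicate 4 and at most 24.3 elsewhere, and its exons overlap the antisense gene *Gm16008*.

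Of the B cell survival axis, *Tnfsf13b* (BAFF) had 5.48 to 14.4 in WT and 3.17 to 19.5 in *Nod2*-/- livers, and its receptor *Tnfrsf13b* (TACI) 0 to 7.67 and 2.97 to 22.5. *Tnfsf14* (LIGHT), a second ligand of *Ltbr*, had 1.10 to 6.58 and 1.06 to 22.5. *Tnfsf15*, the ligand of the death receptor encoded by *Tnfrsf25*, was at 0.819 to 12.3 in WT livers and at 0 to 6.16 in *Nod2*-/- livers, 3 of which had no count. *Tnfrsf25*, *Tnfrsf4*, *Tnfrsf22* and *Cd27* had at most 16, 7, 16 and 8 counts in a liver, and *Tnfsf8*, *Tnfsf9* and *Tnfrsf9* at most 4, 4 and 9. DESeq2 gave no call for any member that edgeR's filter left out.

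The members with the widest intervals moved with single mice. WT replicate 3 was the highest WT liver in 10 of the 18 tested members, against 28.0% of all genes tested, and *Nod2*-/- replicate 4 was the highest of its group in 8, against 16.5%. Without WT replicate 3, 7 members passed 5% FDR (*Cd40*, *Ltb*, *Tnfrsf10b*, *Tnfrsf12a*, *Tnfrsf21*, *Tnfsf10* and *Tnfsf13*), against 5.12% of all genes being higher in that fit. Without *Nod2*-/- replicate 4 or replicate 7 none did. Within each genotype, the summed normalized count of 7 markers of bile duct or progenitor cells was also highest in WT replicate 3 and *Nod2*-/- replicate 4. It was 3610 in WT replicate 3 against 638 to 2144 in the other WT livers. In *Nod2*-/- replicate 4 it was 6760. The lowest value of its group was 1871 and the median 3747, above the sum of WT replicate 3. *Spp1* gave most of this sum and was highest in the same 2 livers, as was *Krt7*, while *Krt19*, *Epcam*, *Sox9* and *Cd24a* were highest in other livers. Between the genotypes 6 of these 7 markers were tested, with a median log2 fold change of 0.72 against 0.02 over all genes tested. The estimate was positive for 4, against 52.3% of all genes tested. Of these, 3 had an unadjusted edgeR p under 0.05, against 12.9% of all genes tested being higher at that level. *Sox9*, a progenitor factor, rose by 1.29 (edgeR adjusted p = 0.0324), against 0.65% of all genes tested that were called higher. The 8 stellate cell markers summed to 4484 in WT replicate 3 and to at most 2079 in the other WT livers, and to 1621 to 2444 in *Nod2*-/- livers. The 9 neutrophil markers summed to 15757 in *Nod2*-/- replicate 7, where *Ltb* and *Tnf* were highest, to at most 660.2 in the other *Nod2*-/- livers and to 69.1 to 151 in WT livers. T cell markers summed to 55.9 to 92.8 in WT and 46.7 to 178 in *Nod2*-/- livers, and B cell markers to 21.9 to 54.8 and 26.4 to 87.2. The part of any of these in the differences of the family was not tested.

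**Figure D4:**
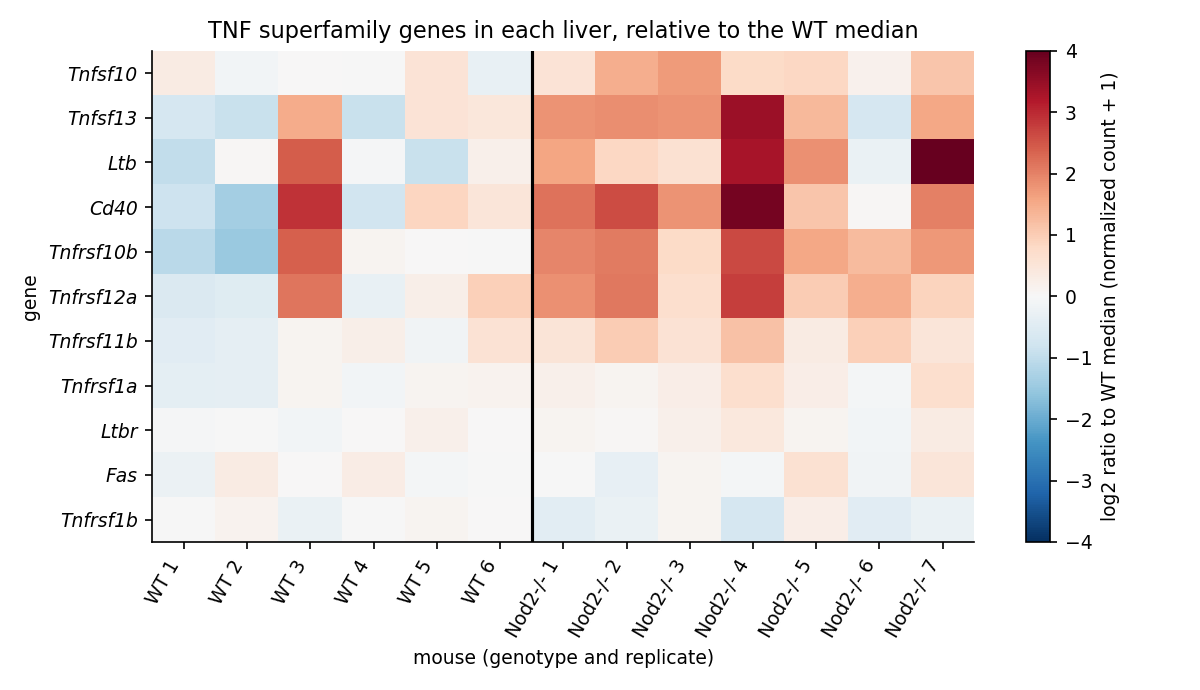
Each cell is the log2 ratio of a gene's normalized count plus 1 in 1 liver to the WT median, for 11 members in 6 WT and 7 Nod2-/- livers, red above and blue below. WT replicate 3 is red for *Tnfsf13*, *Ltb*, *Cd40*, *Tnfrsf10b* and *Tnfrsf12a*, Nod2-/- replicate 6 is the lowest of its group for *Tnfsf13*, *Ltb* and *Cd40*, and the bottom rows (*Ltbr*, *Fas*, *Tnfrsf1b*) stay near white.

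Downstream of the receptors, 4 genes passed 5% FDR, of 60 tested in the 6 lists that follow. *Map3k5* and *Casp8* fell, and *Mlkl* and *Icam1* rose, against 0.509% of all genes tested that fell and 0.65% that rose. *Map3k5* encodes the stress kinase ASK1, which binds Traf2. It had 1149, 1024, 1385, 1213, 1255 and 1374 normalized counts in WT livers and 639, 728, 913, 646, 853, 825 and 668 in *Nod2*-/- livers, so that every *Nod2*-/- liver was below every WT liver. Its log2 fold change was -0.71 ± 0.10 (edgeR adjusted p = 0.00418). It was the only gene called in the list of 21 adaptors and kinases, 20 of them tested, whose median log2 fold change was -0.01. *Birc3*, an NF-kB induced inhibitor of apoptosis, was at 0.56 (adjusted p = 0.101).

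Of 11 genes of the death machinery, all tested, 1 rose and 1 fell, and the median log2 fold change was 0.24. *Casp8*, the initiator caspase of death receptors, had 590.4, 849, 639, 697, 740.2 and 755 in WT livers and 575, 523, 492, 412, 444, 412 and 473 in *Nod2*-/- livers, again without overlap. It fell by 0.58 ± 0.10 on the log2 scale (adjusted p = 0.0170). *Mlkl*, the executor of necroptosis, had 43.1, 64.7, 86.8, 37.3, 104 and 62.2 in WT livers and 142, 214, 148, 226, 107, 117 and 229 in *Nod2*-/- livers, with no overlap in the other direction. It rose by 1.35 ± 0.26 (adjusted p = 0.0284). *Ripk3*, which activates Mlkl, was low, at 7.73 to 22.6 and 10.9 to 50.0, and its log2 fold change was 0.64 (adjusted p = 0.340). *Casp8* and *Map3k5* passed 5% FDR whichever mouse was left out, *Mlkl* in 8 of the 13 such fits and *Icam1* in 4. *Mlkl* did not pass without WT replicate 1, 2 or 4 or without *Nod2*-/- replicate 4 or 7, and *Icam1* passed only without WT replicate 3 or *Nod2*-/- replicate 1, 2 or 3.

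**Figure D5:**
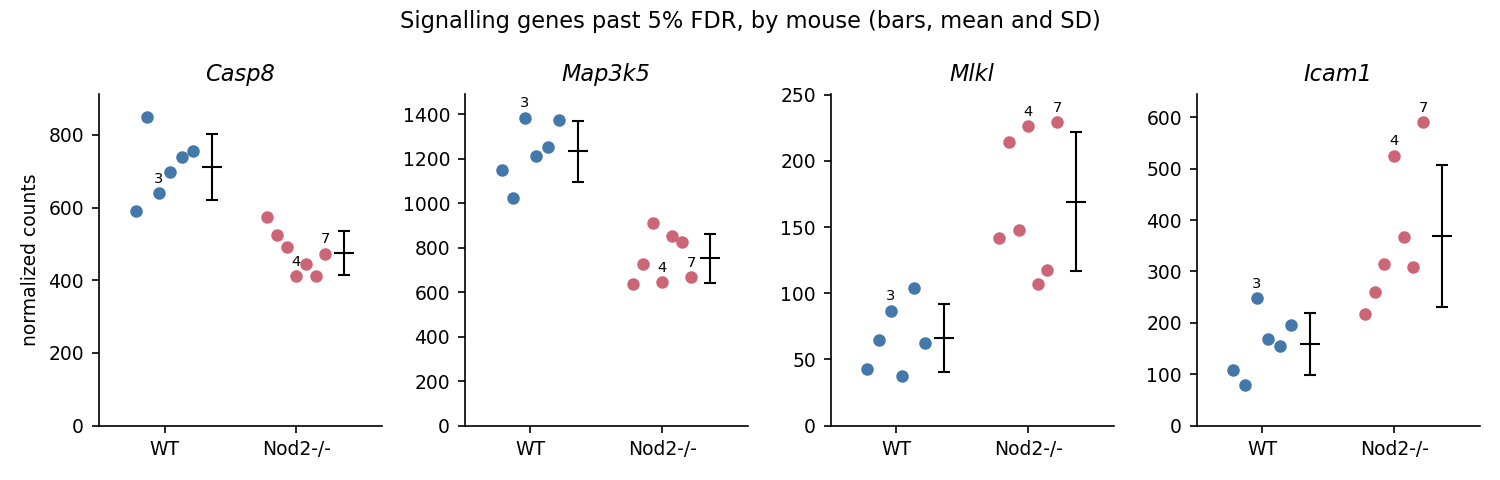
Normalized counts per mouse of the 4 signaling genes past 5% FDR, WT in blue and Nod2-/- in red, with the mean and SD as black bars and WT replicate 3 and Nod2-/- replicates 4 and 7 numbered. *Casp8* and *Map3k5* are lower and *Mlkl* higher in every Nod2-/- liver than in any WT liver, and 6 of 7 Nod2-/- livers lie above all WT livers for *Icam1*.

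None of 15 NF-kB and feedback genes passed 5% FDR by edgeR, but 7 had an unadjusted p under 0.05, all higher, against 12.9% of all genes tested, and DESeq2 called 6, all higher, against 3.81% of all genes. The median log2 fold change of the list was 0.30. The pair with the smallest p were *Nfkbiz*, a nuclear NF-kB cofactor, at 1.29 ± 0.30 (edgeR adjusted p = 0.0526), and *Nfkbie*, an NF-kB inhibitor, at 0.76 ± 0.18 (adjusted p = 0.0565). *Nfkbiz* had 79.5 to 146 in WT and 147 to 567 in *Nod2*-/- livers. Of 7 genes known to respond to lymphotoxin beta receptor signaling, only 3 were tested, and *Icam1*, an adhesion molecule that many other signals also induce, rose by 1.21 ± 0.28 (adjusted p = 0.0490). Its range was 78.9 to 248 in WT and 217 to 590.0 in *Nod2*-/- livers. The study names *Icam1* among the immune genes raised in these samples, so its direction is no independent evidence. The lymphoid chemokine gene *Cxcl13* ranged from 1.03 to 39.8 in WT, with the highest value in replicate 3, and from 2.05 to 58.5 in *Nod2*-/- livers. Its log2 fold change was 1.70 (edgeR adjusted p = 0.194), and it passed 5% FDR without WT replicate 3. *Vcam1*, another adhesion molecule, was at 0.27 (adjusted p = 0.592), and *Ccl19* and *Ccl21a* were too low to test.

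Of 8 genes of ligand shedding, all tested, none passed 5% FDR by edgeR. At an unadjusted p under 0.05 there was 1, higher, a share near the 12.9% of all genes tested. DESeq2 called 1, *Rhbdf2*, higher, against 3.81% of all genes being higher by that tool. *Rhbdf2*, a partner of the TNF-cleaving protease Adam17, was at 0.70 ± 0.20 (edgeR adjusted p = 0.0773), *Rhbdf1* at 0.53 (adjusted p = 0.308) and *Adam17* itself at -0.17 (adjusted p = 0.364). Of 6 superfamily genes whose symbols the rule does not cover, 3 were tested and none was called by edgeR or DESeq2. *Eda*, the ectodysplasin ligand, was lower at an unadjusted p under 0.05, with log2 fold change -0.74 (edgeR adjusted p = 0.196), and its receptor gene *Eda2r* was at 0.10 (adjusted p = 0.911).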

How the data were processed

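Liver RNA of 13 individual mice was sequenced. Per the labels and the study's methods, the authors used Trimmomatic 0.33 for trimming and TopHat2 2.1.1 for mapping to GRCm38. The deposited values are raw counts per gene, in whole numbers. How reads were assigned to genes is not given in the sources used here, nor is the use of strand, so overlapping genes are uncertain. The submitters' processing notes also name DESeq2. The labels describe polyadenylated RNA and the study's methods total RNA, and the methods give a slightly longer diet than the labels. The 1 entry without an identifier was left out. Symbols, positions and exon lengths came from a GENCODE release of the same build, later than the authors' own, which held 53274 of the 53465 genes.

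edgeR 4.0.16 (R 4.3.3) was run on the 13545 genes that filterByExpr kept, which held 99.9% of counts. TMM scaling, glmQLFit and glmQLFTest were used over all 13 mice without covariates, two-sided, with Benjamini-Hochberg adjustment over all genes tested and a limit of 0.05. A positive log2 fold change means higher in *Nod2*-/-. Single genes were also compared by exact permutation of mean log2(normalized count + 1). Alternatives were DESeq2 1.42.0, voomWithQualityWeights of limma 3.58.1, RLE scaling, a robust fit, no filter, a minimum of 10 counts in each mouse, a block on the replicate number, and fits with each mouse left out. The fits were tested on simulated data.

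The members, the gene lists and the marker lists were chosen with earlier results of these data known, and the lists were written from general knowledge. Members with an unadjusted p under 0.05 by edgeR or called by DESeq2, and 11 well known members, are given in full, as are the genes of each signaling list past 5% FDR, or the 2 with the smallest p where none was. Other pathway genes, *Tnfrsf18* and the markers were named after their values were seen. Replicates are individual mice. The study's other experiments are not analysed here.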

Additional observations from a re-analysis of the deposited data

Results flagged for a closer look

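Among 46 groups of mice (2 genotypes of each gene given in full), 13 held 1 mouse whose normalized count lay far from the others, measured as the gap to the nearest mouse divided by the range of the group and compared with Dixon's 95% limit. For independent groups of normal values chance gives about 1 such group in 20. These counts are skewed and the genes share the same mice, so that rate does not apply here. WT replicate 3 was that mouse in 6 groups, each time as the highest WT liver, for *Cd40* (share of the range 0.795), *Ltb* (0.868), *Tnfrsf10b* (0.852), *Tnfrsf12a* (0.662), *Eda2r* (0.879) and *Nfkbie* (0.702). *Nod2*-/- replicate 4 stood apart for *Cd40* (0.613), *Tnfsf13* (0.704) and *Rhbdf1* (0.605). *Nod2*-/- replicate 7 did for *Tnf* (0.748), *Nfkbiz* (0.628) and *Rhbdf2* (0.777). WT replicate 4 did for *Tnf* (0.716), at 8 counts.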

How the results depend on the processing

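Over all genes, 88 were higher and 69 lower in *Nod2*-/- livers. DESeq2 gave 605 and 549, voomWithQualityWeights 519 and 324, and the replicate block 15 and 17. Leaving out 1 mouse gave 20 to 697 higher and 20 to 459 lower, the highest both without WT replicate 3 and at most 116 and 107 without any other mouse. Family members called higher were 0, with DESeq2 3, with voomWithQualityWeights 5, and 0 to 7 with 1 mouse left out (7 without WT replicate 3, 1 without *Nod2*-/- replicate 6). No setting called a member lower. Pathway genes called were 4, with DESeq2 11, with voomWithQualityWeights 8, with the replicate block 1 (*Map3k5*), and 2 to 11 with 1 mouse left out. The median log2 fold change of ligands, 1.31, was 0.77 with DESeq2, 0.63 without the filter, which adds low ligands, and 0.64 with at least 10 counts in every mouse, which leaves *Tnfsf10* and *Tnfsf12*, and 1.01 to 1.52 with 1 mouse left out. That of receptors, 0.39, was 0.18 under that stricter filter and 0.29 to 0.57 with 1 mouse left out. For *Fas* the sign turned to -0.031 under the replicate block, and the range was -0.043 to 0.12 with 1 mouse left out, negative without *Nod2*-/- replicate 5 (-0.043) or 7 (-0.011). Of 296 refits of 15 single genes, 260 kept direction and side of the threshold, 15 newly passed it, 18 no longer did and 3 reversed. The cause of these shifts was not tested. Mice of equal number correlated at -0.30 to 0.30, and whether the numbers pair them was not tested. RLE normalization and the robust fit called no member. Low counts limit 22 of the 40 members.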

Other observations

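Apart from *Sox9*, no gene of the marker lists passed 5% FDR by edgeR. DESeq2 called *Sox9* and *Cd24a* of the bile duct or progenitor list and 4 neutrophil markers (*S100a8*, *S100a9*, *Camp* and *Ngp*). It also called *Cd14* of the inflammatory monocyte list and the endothelial marker *Pecam1*. All of these were higher in *Nod2*-/- livers, against 3.81% of all genes being higher by that tool. The hepatocyte markers *Cyp2e1* and *Hnf4a* were called lower, as were 549 of 15892 genes in all. The study also names *Cd24a*, *S100a8*, *S100a9*, *Camp* and *Ngp* as raised in these samples, so their direction is no independent evidence. Of the 8 hepatocyte markers, 3 were lower and 1 higher at an unadjusted p under 0.05 by edgeR, against 12.9% of all genes tested being higher. The share of all genes that were lower at that level is not given here, and the median log2 fold change of the 8 was -0.07. For neutrophil markers all 4 that edgeR tested were higher at that level, against 12.9% of all genes tested, with a median log2 fold change of 3.42. *Nod2*-/- replicate 7 weighs heavily in this size, as the 9 listed markers summed to 15757 there and to at most 660.2 in the other *Nod2*-/- livers. The median sums were 101 in WT and 344 in *Nod2*-/- livers, and 6 *Nod2*-/- livers were above every WT liver. Kupffer cell markers (7) summed to 1651 to 2801 normalized counts in WT and 2007 to 6058 in *Nod2*-/- livers, with 6058 in *Nod2*-/- replicate 7 and at most 3180.4 in the others, and 2 of the 7 were higher at that level, against the same 12.9%. Inflammatory monocyte markers (6) summed to 104 to 265 in WT, with 265 in replicate 3 and at most 187 in the others, and to 151 to 1526 in *Nod2*-/- livers, with 1526 in replicate 7 and at most 459 in the others. Of the 4 tested, 3 were higher at that level, again against 12.9%. NK cell markers summed to 8.77 to 48.8 and 13.7 to 43.1, plasma cell markers to 3310 to 4479 and 3505 to 5726, and dendritic cell markers to 78.9 to 182 and 100.5 to 199.9. Sinusoidal endothelial markers summed to 3065 to 4282 and 3307 to 4166.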
